A study of Mus musculus with 38 samples.

Results

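Whole bone marrow from 5 mice with MLL-GAS7 leukaemia was compared with marrow from 7 mice with MLL-ENL leukaemia, which together are 12 of the 38 marrow samples in the series. The samples were chosen by the oncogene in their title, with no use of measured values. Each of these 12 mice was lethally irradiated and then received c-kit-positive marrow progenitors that had been infected with a retrovirus carrying the fusion gene. Donor and recipient were syngeneic C57BL/6, recipients were male or female, and the age of the mice is not in the labels. Marrow was collected at euthanasia, cryopreserved, and its RNA was hybridised to 1 single-colour Affymetrix mouse array per mouse. The remaining 26 arrays, which are 22 leukaemias started by MLL-AF9, MLL-AF10 or MLL-AF1p and 4 wild-type C57BL/6 marrows, are used for the estimate of spread and as reference levels. The model has limits that the labels show: the oncogene is expressed from a retrovirus rather than from its own locus, and the RNA is that of unsorted marrow, which holds leukaemic cells and whatever host cells remain. Nothing in the labels says whether the mice of a cohort came from separate transductions, so the p-values measure the spread between mice and no more.

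MLL, the product of the mouse gene Kmt2a, is a histone methyltransferase that keeps developmental genes such as the HoxA cluster active. In leukaemia its front part, which binds chromatin, is joined to one of many partner proteins. ENL, encoded by Mllt1, is a nuclear protein with a YEATS domain that reads acetylated histones and belongs to complexes that release paused RNA polymerase and recruit the histone methyltransferase DOT1L. GAS7 is a cytoplasmic F-BAR protein that binds membranes and actin and was first known from growth-arrested cells and neurons. Fusions of the cytoplasmic kind are thought to act by bringing MLL molecules together as dimers or oligomers. Both fusions cause leukaemia in mice. The comparison asks how far the transcriptional state of the leukaemia depends on the partner.

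The deposited intensities had a trimmed mean of 500 on each array, and the median intensity of an array lay between 133.7 and 206.8 in these 12 mice. Levels are given as log2(intensity + 46.1) with all arrays shifted to the same median, and a difference of 1 on this scale is a 2-fold difference. A probe set with 1 gene symbol was kept if at least 4 arrays had it above their own median, which left 13333 genes. The MLL-GAS7 array of mouse MLL-GAS7_407 had the highest median intensity, and the arrays of mice MLL-GAS7_407 and MLL-GAS7_410 had the brightest hybridisation controls of the cohort (12.54 and 13.19, against 10.85 to 11.65 in the other 3 and 11.03 to 11.92 in MLL-ENL). None of the 4 technical signs compared passed the test after adjustment (median intensity: difference 0.19, adjusted p = 0.101, exact permutation test over all 792 splits, 2-sided). Expression also separated the leukaemias into 2 array sets by 17 probe sets that share 1 split, which no label mentions. Set 1 held mice MLL-GAS7_406 and MLL-GAS7_407 and mice MLL-ENL_701, MLL-ENL_702, MLL-ENL_741 and MLL-ENL_760, and set 2 held mice MLL-GAS7_405, MLL-GAS7_408 and MLL-GAS7_410 and mice MLL-ENL_703, MLL-ENL_742 and MLL-ENL_774, so that both cohorts are present in both sets. All 12 marrows had Xist at 14.22 or above and the Y-linked Eif2s3y at 6.49 or below, so the cohorts did not differ in the sex of their cells by these genes. The myeloid granule genes Mpo, Elane and Prtn3, which mark the granulocyte and monocyte precursor state, read 13.20 or more in all 12.

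Of the 13333 genes, 1151 (8.63%) differed at an adjusted p under 0.05 by limma with Benjamini-Hochberg adjustment, 258 of them (1.94%) higher in MLL-GAS7 and 893 (6.70%) higher in MLL-ENL. At least 2-fold differences numbered 350, with 151 higher in MLL-GAS7 and 199 higher in MLL-ENL. All 5 MLL-GAS7 mice lay above all 7 MLL-ENL mice for 110 genes (0.825%) and below them for 313 (2.35%). The split of calls between the directions depends on scaling: with the values as deposited, without the shift of medians, 569 genes were higher in MLL-GAS7 and 560 in MLL-ENL, and the median difference of all genes moved from -0.13 to 0.02. Small differences are therefore read here against the median of all genes. The count also rested on single mice. Without mouse MLL-GAS7_407, MLL-GAS7_410 or MLL-GAS7_408 it was 611, 647 or 665, without mouse MLL-GAS7_406 it was 2068, and without both MLL-GAS7_407 and MLL-GAS7_410, an alternative chosen after seeing the data, it was 319 (161 higher in MLL-GAS7, 158 in MLL-ENL). Without mouse MLL-ENL_741 the calls higher in MLL-ENL were 575, and without mouse MLL-GAS7_408 those higher in MLL-GAS7 were 140. With array set as a term 1318 genes were called, 1122 of them the same genes. Of the 1151, 1146 had the same sign in both array sets. The sets are made of the arrays that gave the calls, so a shared sign is largely built in and is no replication. Within set 1 and set 2 alone 221 and 392 were called.

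**Figure D1:**
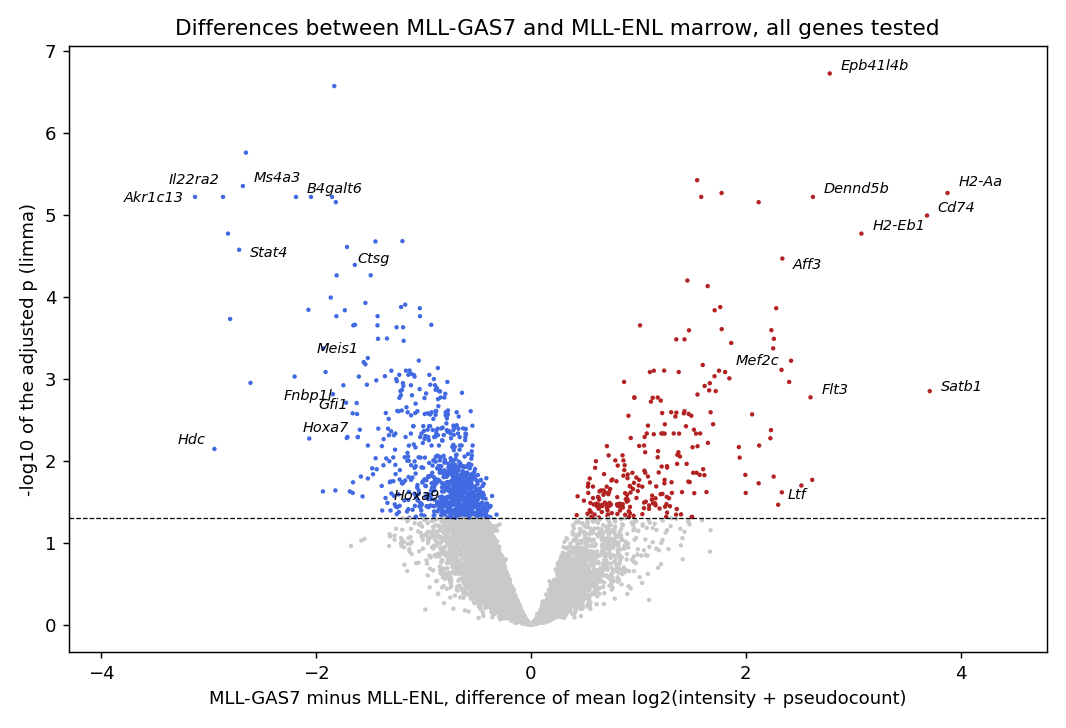
Each point is 1 of the 13333 genes tested, with the difference of cohort means on the horizontal axis (log2, MLL-GAS7 minus MLL-ENL) and -log10 of the limma adjusted p on the vertical axis. Red points are the 258 genes called higher in MLL-GAS7 and blue points the 893 called higher in MLL-ENL, above the dashed line at an adjusted p of 0.05; H2-Aa, Satb1 and Cd74 lie farthest to the right and Akr1c13 farthest to the left.

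The gene with the largest difference of the 13333, H2-Aa, belongs to MHC class II, the surface molecules with which dendritic cells, B cells and macrophages present antigen to helper T cells. The alpha and beta chains are assembled on the invariant chain, encoded by Cd74, and loaded with peptide with the help of H2-DM and H2-O. Of the 18 measured genes in a list of class II and dendritic cell genes, 10 were higher in MLL-GAS7, against 1.94% of all genes, and none was lower. Their median difference was 1.09, against -0.13 for all genes. With the values as deposited 11 were higher, and with quantile normalization 10. With only the 12 arrays fitted 8 were higher, and within array set 1 and set 2 alone 1 and 9.

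Class II genes are known for conserved X and Y boxes before their start sites. Shown are 3 promoters of genes that were higher and whose promoter holds the Y box. H2-Ob was also higher, but its promoter did not hold the Y box and is not shown. The 150 bases before the RefSeq start site are given 5′ to 3′ on the gene's strand (GRCm38.p6), for H2-Aa at chr17:34287824-34287973 (minus strand), H2-Eb1 at chr17:34305717-34305866 (plus) and H2-Oa at chr17:34092229-34092378 (plus). Capitals mark the Y box, searched as CTGATTGG on both strands, and the nearest copy upstream on the same strand of GCAAC, the core of the X box bound by the RFX complex.
H2-Aa: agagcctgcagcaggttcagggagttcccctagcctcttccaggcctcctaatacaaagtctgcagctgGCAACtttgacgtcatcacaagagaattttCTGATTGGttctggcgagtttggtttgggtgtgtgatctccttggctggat
H2-Eb1: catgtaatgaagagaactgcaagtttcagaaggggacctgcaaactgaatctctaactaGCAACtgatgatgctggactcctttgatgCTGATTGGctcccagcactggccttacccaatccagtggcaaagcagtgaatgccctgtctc
H2-Oa: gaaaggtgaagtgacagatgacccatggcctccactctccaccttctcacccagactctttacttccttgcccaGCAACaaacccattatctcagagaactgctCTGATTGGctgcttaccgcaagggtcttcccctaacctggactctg
The Y box began 51 bases before the start site in H2-Aa, 62 in H2-Eb1 and 46 in H2-Oa, with 25, 24 and 25 bases between the 2 motifs, which do not overlap. These letters occur in the same window of 3.16% of the 32851 RefSeq mouse promoters, and GCAAC on either strand in 19.6%. The Y box stood in 4 of the 7 measured class II genes that had a promoter sequence, these 3 and H2-Eb2, whose own level did not pass the test. H2-Ob, H2-DMa and H2-DMb2 did not hold these letters there. A match is a match of letters and says nothing of binding in these cells.

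H2-Aa, the class II alpha chain, read 12.83, 11.21, 12.19, 14.41 and 13.54 in mice MLL-GAS7_405, MLL-GAS7_406, MLL-GAS7_407, MLL-GAS7_408 and MLL-GAS7_410, and 8.53 to 9.76 with a median of 8.70 in the 7 MLL-ENL mice. The groups did not overlap, mouse MLL-GAS7_408 was the highest and mouse MLL-GAS7_406 the lowest of the 5. The difference was 3.88 ± 0.50 (SE), or 14.7-fold (limma adjusted p = 5.45e-06), and it was called in each alternative that tested it. The other 3 kept H2-Aa probe sets differed by 2.41 to 4.50. Cd74 ran the same way, at 13.34, 11.57, 12.31, 14.72 and 13.91 in the MLL-GAS7 mice in the same order against 8.82 to 10.26 with a median of 9.47, a difference of 3.69 ± 0.51 (12.9-fold, adjusted p = 1.03e-05). The beta chain H2-Eb1 stood at 11.83, 10.01, 10.79, 13.74 and 12.33 against 8.08 to 9.18 with a median of 8.88, a difference of 3.08 ± 0.44 (adjusted p = 1.71e-05). In each of these genes mice MLL-GAS7_406 and MLL-GAS7_407 were the lowest of the 5, and both of them nevertheless exceeded all MLL-ENL mice. For H2-Ab1, the other classical beta chain, mice MLL-GAS7_406 and MLL-GAS7_407 at 10.40 and 10.51 lay just above the highest MLL-ENL mouse at 10.07, while the other 3 reached 11.45 to 13.25. Its difference was 1.85 ± 0.35 (adjusted p = 0.000993).

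Mice MLL-GAS7_406 and MLL-GAS7_407 are the array set 1 mice. Within set 1 the difference was 2.77 for H2-Aa, 2.48 for Cd74, 1.87 for H2-Eb1 and 0.68 for H2-Ab1, and within set 2 it was 4.60, 4.48, 3.80 and 2.59. Only H2-Aa of these 4 was called within set 1 (adjusted p = 0.0368), and all 4 were called within set 2. For no one of the 4 did the test of the difference between sets pass (H2-Aa: adjusted p = 0.648). In bulk marrow more cells of a type and more RNA per cell cannot be told apart. Wild-type marrow, which holds B cells and antigen-presenting cells, averaged 12.57 for H2-Aa and 13.41 for Cd74, near the MLL-GAS7 means of 12.84 and 13.17. The other 3 leukaemia cohorts averaged 9.77 to 10.37 for H2-Aa, between the 2 cohorts compared. Single mice of these cohorts reached the MLL-GAS7 range, whose lowest mouse read 11.21. They were MLL-AF9_305 at 12.46, MLL-AF9_307 at 11.83 and MLL-AF10_797A at 11.79, and all other mice of these cohorts lay below it.

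**Figure D2:**
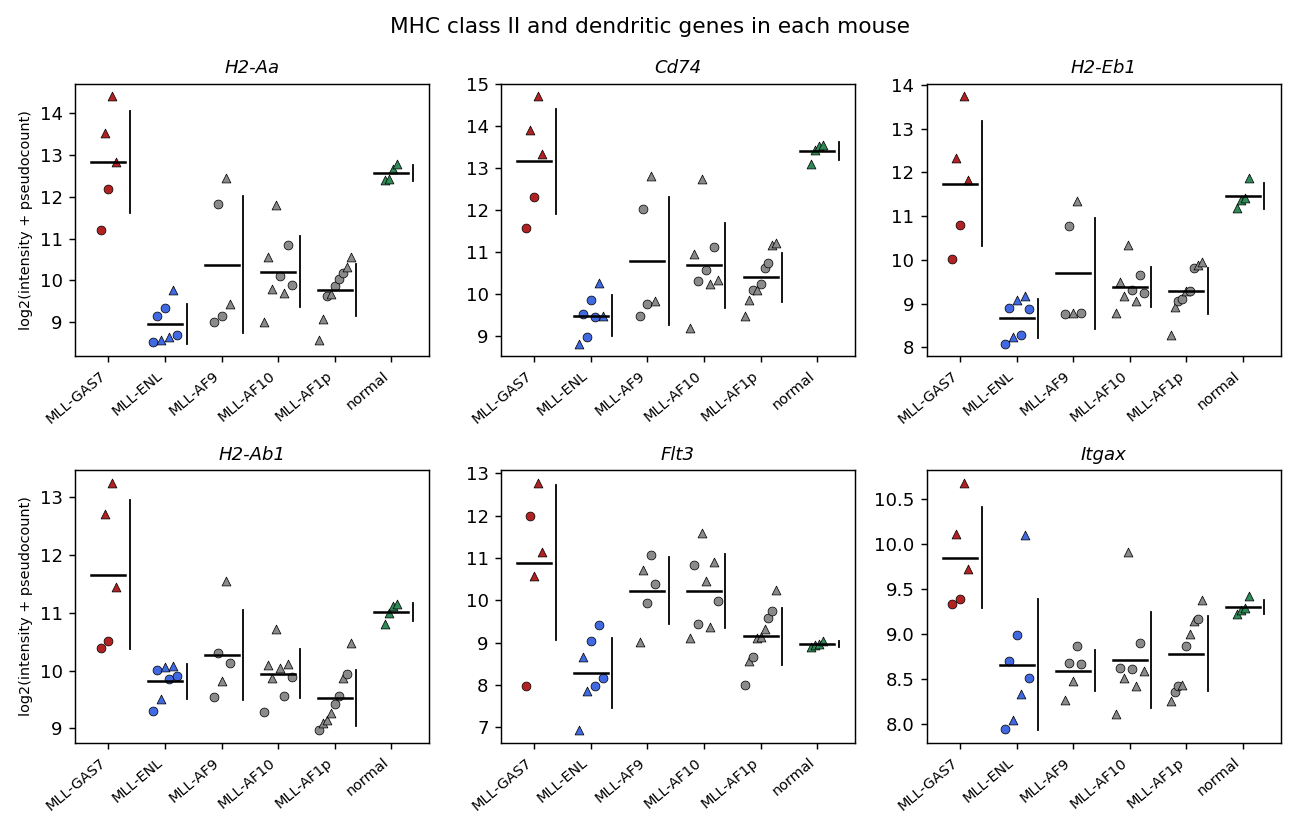
Level of 6 genes in each of the 38 mice, as log2(intensity + pseudocount), by group; circles are array set 1 and triangles array set 2, horizontal bars are group means and vertical bars 1 SD to each side. For H2-Aa, Cd74, H2-Eb1 and H2-Ab1 all 5 MLL-GAS7 mice lie above all 7 MLL-ENL mice, while for Flt3 and Itgax the groups overlap.

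The remaining class II genes are given although the rule for naming genes did not select them. H2-Oa and H2-Ob, the chains of the H2-O protein that restrains peptide loading, were higher by 1.78 ± 0.30 (adjusted p = 0.000249) and 1.31 ± 0.27 (adjusted p = 0.00257). The peptide loader H2-DMa differed by -0.18 ± 0.28 (adjusted p = 0.752), and its partner H2-DMb2 by 0.44 ± 0.34 (adjusted p = 0.454). The further beta chain H2-Eb2 differed by 0.42 ± 0.38 (limma adjusted p = 0.525), and H2-DMb1 was not measured. H2-Aa, H2-Ab1, H2-Eb1 and the H2-O chains thus passed the test, while H2-Eb2, H2-DMa and H2-DMb2 did not. Ciita, the coactivator that assembles at the X and Y boxes, read 8.15, 7.77, 7.16, 9.46 and 8.07 in the MLL-GAS7 mice and 7.11 to 7.99 with a median of 7.35 in MLL-ENL. Its difference of 0.66 ± 0.23 missed the threshold (adjusted p = 0.0705), and it passed without mouse MLL-GAS7_407 (adjusted p = 0.0149) or mouse MLL-GAS7_406 (0.0387). The difference of Ciita was -0.00312 within set 1 (adjusted p = 0.998) and 1.10 within set 2 (adjusted p = 0.0396).

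Flt3, the receptor tyrosine kinase of multipotent progenitors whose ligand drives dendritic cell development, read 11.15, 11.99, 7.98, 12.78 and 10.57 in MLL-GAS7 against 6.93 to 9.41 with a median of 8.18 in MLL-ENL. Mouse MLL-GAS7_407 fell inside the MLL-ENL range and the other 4 lay above it. The difference was 2.60 ± 0.52 (6.07-fold, adjusted p = 0.00169), and 3.33 without mouse MLL-GAS7_407. Itgax, which encodes the dendritic integrin CD11c, was higher by 1.18 ± 0.28 (adjusted p = 0.00766), with 1 MLL-ENL mouse at 10.10 inside the MLL-GAS7 range. Batf3, a transcription factor of conventional dendritic cells, is not on the class II and dendritic list and not among its 10 calls. It was higher by 1.22 ± 0.35 (limma adjusted p = 0.0254) but was above the array median in 4 of 5 MLL-GAS7 and 1 of 7 MLL-ENL mice. The call of Batf3 was lost without mouse MLL-GAS7_408, MLL-GAS7_410, MLL-ENL_701 or MLL-ENL_760 (adjusted p up to 0.118). The plasmacytoid marker Siglech was above the median in 3 of 5 and 3 of 7 and was not called. Summed over the 18 measured genes of the list, intensity was 17476 to 94450 in MLL-GAS7, 6484 to 9708 in MLL-ENL and 29841 to 34375 in normal marrow. The count of 10 became 9 without both mice MLL-GAS7_407 and MLL-GAS7_410, and 6 when probe sets that can match several transcripts or genes were dropped, where H2-Aa and Cd74 had no probe set left to test.

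B cells also carry class II. Of 22 measured B lineage genes 4 were higher in MLL-GAS7, against 1.94% of all genes, and 0 lower, with a median difference of 0.34. The median was 0.85 within set 1 and 0.12 within set 2, 0.08 without mouse MLL-GAS7_407, and -0.03 without mice MLL-GAS7_407 and MLL-GAS7_410 together, where 10 of the 22 differences were positive and 2 genes were called. Cd22, an inhibitory receptor of B cells, read 10.15, 9.26, 9.76, 11.08 and 9.04 against 7.77 to 8.56 with a median of 8.12, without overlap, and was higher by 1.71 ± 0.32 (adjusted p = 0.000934). Cd24a, a surface glycoprotein of B cell precursors and also of immature granulocytes, was higher by 2.12 ± 0.58 (adjusted p = 0.0189), and lost its call without mouse MLL-GAS7_407 (adjusted p = 0.0541). The other 2, Spib and Cd79b, differed by 0.85 and 0.74 and lost their calls in 6 of the 12 fits that each left out 1 mouse, with adjusted p up to 0.174 for Spib and 0.107 for Cd79b. Of the defining B lineage genes, Ebf1 and Rag1 were above the array median in 0 of 5 MLL-GAS7 and 0 of 7 MLL-ENL mice and the precursor gene Vpreb1 in 1 of 5 and 0 of 7. The B cell factor Pax5 was above it in 4 of 5 and 6 of 7, with median intensities of 223 and 237, and Ms4a1, the mature B cell marker CD20, in 5 of 5 and 4 of 7. Cd79a intensity was 155 to 1067 in MLL-GAS7 and 16.2 to 265 in MLL-ENL, and 3163 to 5345 in normal marrow. Summed over the list, B lineage intensity was 16507 to 35410, 6412 to 13510 and 67676 to 95402 in the same order. The sum includes Cd24a, which read 12.85 to 13.73 in MLL-GAS7 and 9.53 to 12.63 in MLL-ENL on the log2 scale. As Cd24a is also expressed in immature granulocytes, the sum is not of B cells alone. Without mouse MLL-GAS7_407 a single B lineage gene, Cd22, was called, without mouse MLL-GAS7_408 or with only the 12 arrays fitted 2 were, and without mouse MLL-GAS7_406 6 were. The part of B cells in the class II difference was not tested.

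Among the genes higher in MLL-GAS7 were the regulators Satb1, Aff3, Mef2c and Id2, which come from different lists or from the largest differences and are no list of their own. Of 23 measured myeloid transcription factors, the list that holds Id2, 2 were higher and 4 lower, against 1.94% and 6.70% of all genes. Satb1, a chromatin organiser of lymphoid progenitors and T cells, read 11.92, 12.76, 10.77, 12.18 and 10.82 in MLL-GAS7 against 6.85 to 9.17 with a median of 7.98 in MLL-ENL, a difference of 3.71 ± 0.74 (13.1-fold, adjusted p = 0.00142). The groups did not overlap. The difference was 4.07 within set 1 and 3.28 within set 2, where it just missed the threshold (adjusted p = 0.054). Its other kept probe sets differed by 0.64 to 3.15. Those at 0.64 and 0.83 were not called (limma adjusted p over probe sets = 0.26 and 0.0709). Aff3, a lymphoid member of the AF4 family of elongation factors, stood at 8.92, 10.004, 8.45, 8.96 and 7.76 against 6.07 to 7.17 with a median of 6.31, again without overlap, and was higher by 2.34 ± 0.35 (adjusted p = 3.43e-05). Its other kept probe set differed by 0.57 and was not called (limma adjusted p over probe sets = 0.434). Aff3 was the only called gene of 12 measured elongation and DOT1L complex genes, against 1.94% of all genes higher. Mef2c, a factor of myeloid and B cell fate that is also bound by MLL fusions, was higher by 1.81 ± 0.34 (adjusted p = 0.000831), and its 4 other kept probe sets differed by 1.74 to 2.07. Id2, an inhibitor of E proteins required by dendritic and natural killer cells, was higher by 1.94 ± 0.46 (adjusted p = 0.00684) with no overlap between the groups. These 4 genes kept their calls in each of the 12 fits that left out 1 mouse. Without mice MLL-GAS7_407 and MLL-GAS7_410 together, the call of Id2 was lost (adjusted p = 0.0516). It was also lost within array set 1, and when probe sets that can match several genes were dropped, where Id2 differed by 1.01.

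Other genes with large differences higher in MLL-GAS7 come from several families. Epb41l4b, a FERM domain protein of the cell cortex, had the smallest adjusted p of all genes: it read 9.91, 10.43, 9.14, 10.33 and 9.60 against 6.69 to 7.79 with a median of 7.09, a difference of 2.78 ± 0.29 (adjusted p = 1.9e-07) that was 2.78 and 2.72 within the 2 array sets. Dennd5b, which carries the DENN domain of Rab exchange factors, was higher by 2.63 ± 0.35 (adjusted p = 6.09e-06). Arap2, an Arf GTPase-activating protein, was higher by 2.42 ± 0.44 (adjusted p = 0.000605). All 3 separated the groups and were called in each alternative. Eml5, of the microtubule-associated EMAP family, was higher by 2.40 ± 0.46 (adjusted p = 0.0011), with 1 MLL-GAS7 mouse, MLL-GAS7_407, inside the MLL-ENL range. Upb1, the last enzyme of pyrimidine breakdown, was higher by 2.62 ± 0.70 (adjusted p = 0.0172), and the ephrin receptor Epha7 by 2.33 ± 0.43 (adjusted p = 0.000781). Lifr, the receptor of leukaemia inhibitory factor, was higher by 2.52 ± 0.69 (adjusted p = 0.0201) but not without mouse MLL-GAS7_408, which read 11.16 against 9.02 to 9.34 in the others (adjusted p = 0.0779). Col19a1, a collagen, was higher by 2.34 ± 0.67 (adjusted p = 0.0244), and lost its call without mouse MLL-GAS7_405, MLL-GAS7_406 or MLL-GAS7_408 (adjusted p up to 0.0832).

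The HoxA cluster and its cofactor Meis1 are the best known targets of MLL fusions and maintain self-renewal of the leukaemia. Of 12 measured HoxA and HoxB genes 0 were higher and 5 lower in MLL-GAS7, against 6.70% of all genes in that direction, with a median of -0.61. Hoxa7 read 7.45, 7.48, 7.05, 6.61 and 6.77 in MLL-GAS7 and 7.16 to 9.27 with a median of 8.80 in MLL-ENL, where 1 mouse fell among the MLL-GAS7 values. The difference was -1.61 ± 0.37, 3.06-fold (adjusted p = 0.00517). Hoxa9 stood at 12.58, 12.33, 12.36, 11.94 and 11.49 against 12.41 to 13.47 with a median of 12.85, with a difference of -0.76 ± 0.23 (adjusted p = 0.0349). Normal marrow averaged 7.78, so that Hoxa9 was high in all 12 leukaemias and the cohorts overlapped.

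Hoxa5 differed by -1.22 ± 0.33 (adjusted p = 0.017), which rests on mouse MLL-GAS7_410: it read 6.35 against 8.99 to 9.64 in the other 4, and without it the adjusted p was 0.0858. Hoxa2 and Hoxa3 differed by -0.93 ± 0.27 and -0.75 ± 0.23 (adjusted p = 0.0264 and 0.0346). Hoxa10, at -0.86 ± 0.32, missed the threshold (adjusted p = 0.0817), while Hoxa11 (0.30), Hoxa13 (0.08), Hoxb2 (0.42), Hoxb3 (-0.23), Hoxb4 (-0.35) and Hoxb7 (-0.46) did not pass. The cluster's 5 calls fell to 3 without mouse MLL-ENL_701 or MLL-ENL_741, to 2 without mouse MLL-ENL_703 or MLL-GAS7_408 or with the values as deposited, and to 1, Hoxa7, without mouse MLL-GAS7_410 (3 with quantile normalization). With only the 12 arrays fitted, without the spread of the other arrays, 1 was called. Without mice MLL-GAS7_407 and MLL-GAS7_410 together none was called, at a median of -0.57. The loss of Hoxa9's call came without any of mice MLL-ENL_701, MLL-ENL_702, MLL-ENL_703, MLL-GAS7_407, MLL-GAS7_408 and MLL-GAS7_410 (adjusted p up to 0.137), and Hoxa2 and Hoxa3 lost theirs in 4 and 8 of the 12 such fits (adjusted p up to 0.0853 and 0.101). Hoxa7 alone of the cluster was called in each of the 12.

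Meis1 was called in each of the 12 fits without 1 mouse. It read 9.01, 9.82, 8.39, 9.19 and 9.57 in MLL-GAS7 and 9.83 to 11.36 with a median of 10.69 in MLL-ENL, so that the groups did not overlap, with a difference of -1.52 ± 0.27 (2.87-fold, adjusted p = 0.000562). Its 2 other kept probe sets differed by -1.003 and -0.60, and the lesser of these was not called. Normal marrow averaged 6.74 and the other 3 leukaemia cohorts 10.46 to 11.39. Among 20 further genes described as MLL fusion targets 3 were higher and 6 lower, against 1.94% and 6.70% of all genes. The counts became 5 and 5 with the values as deposited and 5 and 4 with quantile normalization. Without mice MLL-GAS7_407 and MLL-GAS7_410 together 2 were higher and 2 lower. Flt3 and Mef2c were among those higher, and Meis1, Gfi1 and Myb among those lower. Myb, which sustains the self-renewal of MLL leukaemia, read 13.66, 14.06, 12.73, 12.87 and 12.64 against 14.04 to 14.28 with a median of 14.11, where mouse MLL-GAS7_406 reached the MLL-ENL range, and differed by -0.95 ± 0.18 (adjusted p = 0.0009). Cdk6, a G1 kinase on the same list, differed by -0.60 ± 0.18 (adjusted p = 0.0301) and lost its call without mouse MLL-GAS7_407, MLL-GAS7_408, MLL-GAS7_410, MLL-ENL_741, MLL-ENL_742 or MLL-ENL_760 (adjusted p up to 0.136) and with the values as deposited (adjusted p = 0.0534).

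Gfi1, a repressor that commits progenitors to granulocytes, read 10.85, 10.63, 10.44, 9.34 and 9.25 in MLL-GAS7 and 10.93 to 12.41 with a median of 11.88 in MLL-ENL. No MLL-GAS7 mouse reached the lowest MLL-ENL mouse, although mouse MLL-GAS7_405 came close, and mice MLL-GAS7_408 and MLL-GAS7_410 were near the normal mean of 9.59. The difference was -1.62 ± 0.34 (3.07-fold, adjusted p = 0.0027). Stat4, the transducer of interleukin 12, read 8.59, 7.33, 6.41, 5.90 and 6.19 against 8.52 to 10.07 with a median of 9.84, a difference of -2.72 ± 0.40 (adjusted p = 2.68e-05) in which mouse MLL-GAS7_405 alone overlapped. Erg, a stem cell factor of the ETS family, differed by -1.02 ± 0.23 (adjusted p = 0.00467) without overlap. It was the single called gene among 19 stem and progenitor genes, against 6.70% of all genes lower, and their median was 0.05. Both Gfi1 and Stat4 were called in each fit that left out 1 mouse.

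Genes of the primary granule, made at the promyelocyte stage, followed no common course. Of 14 measured, 4 were lower and 1 higher in MLL-GAS7, against 6.70% and 1.94% of all genes, with a median of -0.48. Ms4a3, a membrane protein of granulocyte and monocyte progenitors, read 11.04, 9.40, 10.26, 10.68 and 10.92 in MLL-GAS7 and 12.45 to 13.53 with a median of 13.22 in MLL-ENL. The groups did not overlap, and the difference of -2.68 ± 0.34 (6.42-fold, adjusted p = 4.48e-06) was called in each alternative. The other 3 leukaemia cohorts averaged 12.31 to 12.91 and normal marrow 12.28. Ctsg, the granule protease cathepsin G, read 13.62, 13.56, 11.98, 12.72 and 12.88 against 14.24 to 14.93 with a median of 14.71, with no overlap and a difference of -1.71 ± 0.25 (adjusted p = 2.48e-05). The granule genes Mpo, Elane and Prtn3, which encode myeloperoxidase, elastase and proteinase 3, are named outside the rule: they differed by -0.58 ± 0.21, -0.69 ± 0.23 and -0.42 ± 0.18 and did not pass (adjusted p = 0.0747, 0.0557 and 0.138). Mpo passed without mouse MLL-ENL_701 (adjusted p = 0.0291) and Elane without mouse MLL-GAS7_407 (0.0262). Also lower were Igfbp4, a binding protein of insulin-like growth factors (-1.32 ± 0.30, adjusted p = 0.00491), and the protease inhibitor Serpinb1a (-0.93 ± 0.26, adjusted p = 0.0232), the latter not without mouse MLL-GAS7_408 or MLL-GAS7_410 (adjusted p = 0.101 and 0.0709). Fcnb, a ficolin of the granules, was higher by 1.9998 ± 0.57 (adjusted p = 0.0248) and lost its call without mouse MLL-GAS7_405, MLL-GAS7_407, MLL-GAS7_410 or MLL-ENL_741 (adjusted p up to 0.0852).

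**Figure D3:**
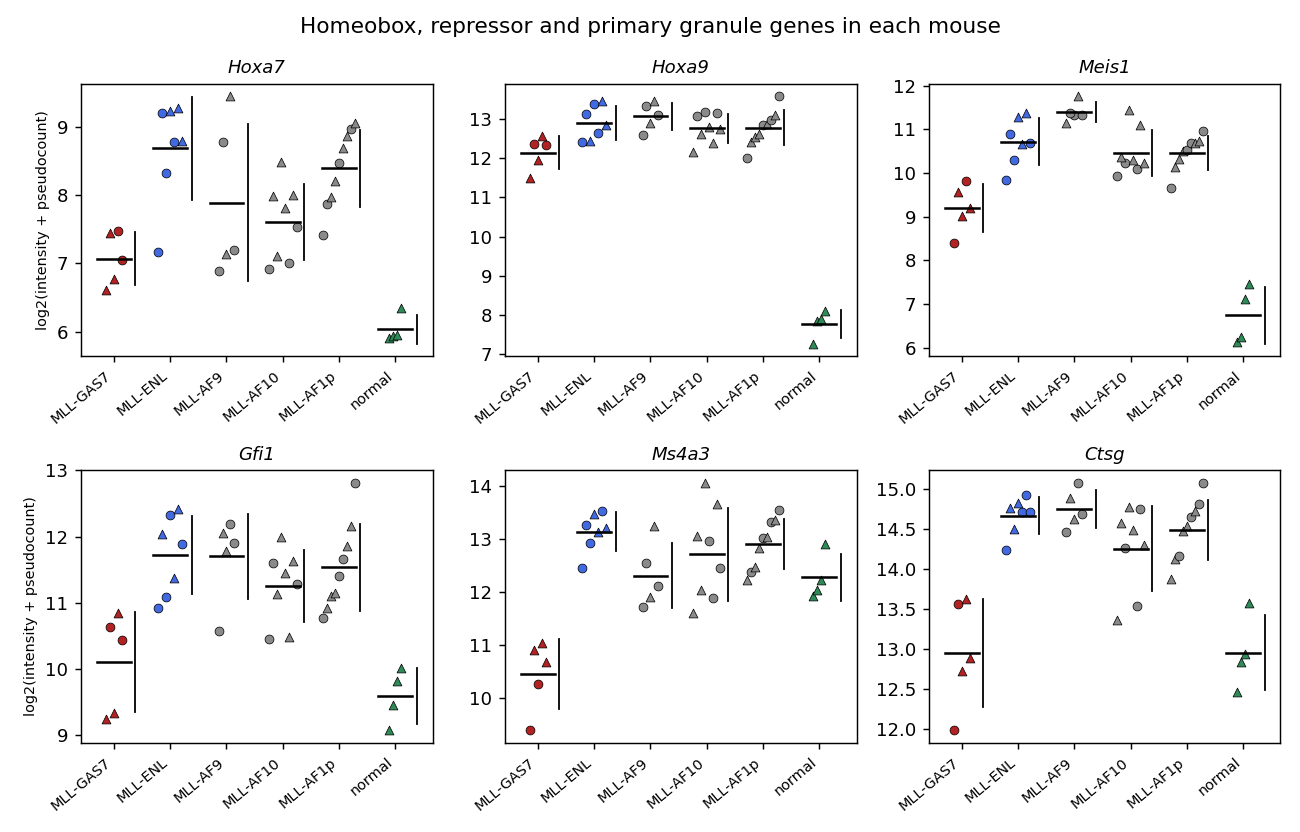
Level of 6 genes in each of the 38 mice, as log2(intensity + pseudocount), by group; circles are array set 1 and triangles array set 2, horizontal bars are group means and vertical bars 1 SD to each side. All 5 MLL-GAS7 mice lie below all 7 MLL-ENL mice for Meis1, Gfi1, Ms4a3 and Ctsg, and the groups overlap for Hoxa7 and Hoxa9.

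Genes of later neutrophil stages had positive differences for the most part. Of 22 measured, 4 were higher in MLL-GAS7, against 1.94% of all genes, and 0 lower, 19 of 22 differences were positive, and the median was 0.81. No member separated the groups. Mmp8, the neutrophil collagenase, read 12.17, 9.92, 13.65, 12.67 and 12.83 in MLL-GAS7 against 9.65 to 10.90 with a median of 9.96, with mouse MLL-GAS7_406 near the MLL-ENL median and the other 4 above all MLL-ENL mice (difference 2.12 ± 0.50, adjusted p = 0.00654). Itgb2l, a neutrophil integrin subunit, was higher by 2.06 ± 0.44 (adjusted p = 0.00273). Its other kept probe sets, at -0.16 and 0.35, were not called (limma adjusted p over probe sets = 0.738 and 0.585). Lactoferrin, Ltf, was higher by 2.30 ± 0.70 (adjusted p = 0.0345) and the granule protein Ngp by 1.496 ± 0.49 (adjusted p = 0.0487), and both are uncertain: Ltf lost its call in 7 and Ngp in 9 of the 12 fits without 1 mouse, with adjusted p up to 0.11 and 0.142. The count of 4 fell to 2 without any one of mice MLL-GAS7_405, MLL-GAS7_407, MLL-GAS7_410, MLL-ENL_741, MLL-ENL_742, MLL-ENL_760 and MLL-ENL_774. Without mice MLL-GAS7_407 and MLL-GAS7_410 together none was called and the median was 0.28. Summed intensity over the list was 191001 to 573207 in MLL-GAS7, 122352 to 296908 in MLL-ENL and 378048 to 633024 in normal marrow. How far residual host neutrophils enter this difference was not tested.

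Beyond Ms4a3, the largest differences higher in MLL-ENL were in enzymes, receptors and secreted proteins. Akr1c13, an aldo-keto reductase, read 5.84, 6.02, 6.23, 5.74 and 5.84 in MLL-GAS7 and 7.29 to 10.61 with a median of 8.79 in MLL-ENL, a difference of -3.13 ± 0.42 (8.74-fold, adjusted p = 6.09e-06). Il22ra2, the soluble decoy receptor of interleukin 22, read 8.09, 7.47, 7.23, 7.65 and 7.47 against 8.72 to 12.11 with a median of 10.91, a difference of -2.87 ± 0.38 (adjusted p = 6.09e-06). Both separated the groups and were called in each alternative, as were the C-type lectin Mgl2 (-2.82 ± 0.40), the intestinal-type glucosidase Mgam (-2.80 ± 0.47), the lactosylceramide synthase B4galt6 (-2.19 ± 0.29), the secreted protein Dmkn (-2.07 ± 0.34) and the type I interferon Ifnz (-2.05 ± 0.27). B4galt6 stood at 10.98, 10.26, 10.75, 9.84 and 9.80 against 12.06 to 13.04 with a median of 12.50.

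Hdc, which makes histamine and is expressed in basophils, mast cells and myeloid progenitors, split the MLL-GAS7 cohort. It read 6.27, 9.71, 8.87, 5.90 and 6.80 in the 5 MLL-GAS7 mice in the same order against 9.14 to 11.54 with a median of 10.61. Mice MLL-GAS7_405, MLL-GAS7_408 and MLL-GAS7_410, the set 2 mice, were low and mice MLL-GAS7_406 and MLL-GAS7_407 were near or inside the MLL-ENL range. The difference was -2.95 ± 0.70 over both sets (adjusted p = 0.0072), -0.70 within set 1 and -4.75 within set 2, and the test between sets did not pass (adjusted p = 0.34). Hal, a histidine-degrading enzyme, differed by -3.68 within set 1 and -0.80 within set 2 (-2.20 ± 0.42 over both, adjusted p = 0.000944, and 0.217 between sets). Coagulation factor VII, F7, differed by -2.61 ± 0.51 (adjusted p = 0.00113), and Cst7, the cystatin of immune cells, by -2.06 ± 0.47 (adjusted p = 0.00538). The calcium channel Cacna1b differed by -1.94 ± 0.55 (adjusted p = 0.0237), but not without mouse MLL-GAS7_410 (adjusted p = 0.0685).

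Other eosinophil, basophil and mast cell genes gave little beside Hdc: 3 of 13 were lower (6.70% of all genes) and 0 higher, and without any one of 8 mice (MLL-GAS7_407, MLL-GAS7_408, MLL-GAS7_410, MLL-ENL_701, MLL-ENL_703, MLL-ENL_741, MLL-ENL_760 and MLL-ENL_774) only 1 was called. Macrophage genes were mixed, with 2 of 18 higher (4 without mouse MLL-GAS7_406) and 1, Mgl2, lower, against 1.94% and 6.70% of all genes. Apoe, the lipid carrier made by macrophages, was higher by 2.23 ± 0.51 (adjusted p = 0.00533), at 12.31, 10.01, 10.60, 13.09 and 12.64 against 8.48 to 10.60 with a median of 9.38, with the 3 set 2 mice highest. C1qb, a complement C1q chain, was higher by 1.37 ± 0.33 (adjusted p = 0.0079). Its other kept probe sets, at 0.90 and 0.997, were not called (limma adjusted p over probe sets = 0.119 and 0.166). Of 20 measured Toll-like, Fc and complement receptors 2 were higher and 3 lower, against 1.94% and 6.70% of all genes, with a median of -0.04. With the values as deposited, and also with quantile normalization, 3 were higher and 1 lower, and 1 was lower without any one of mice MLL-GAS7_407, MLL-GAS7_408, MLL-ENL_741, MLL-ENL_760 and MLL-ENL_774. Tlr2, which senses bacterial lipoproteins, was higher by 1.24 ± 0.23 (adjusted p = 0.000798), and Tlr4, which senses lipopolysaccharide, was lower, with a difference of -0.91 ± 0.20 (adjusted p = 0.00423). Each separated the groups, Tlr2 at 10.01, 9.41, 9.99, 10.56 and 10.64 against 8.56 to 9.28 with a median of 8.72 and Tlr4 at 8.55, 7.48, 8.49, 8.27 and 8.52 against 8.61 to 9.68 with a median of 9.23. Fcgr3, an activating IgG receptor, was lower as well (-1.14 ± 0.27, adjusted p = 0.00656). It was the 1 called gene among 24 monocyte genes, against 6.70% of all genes lower. Of these 24, 5 were lower without mouse MLL-ENL_742, 2 lower without mouse MLL-GAS7_407, and 3 higher without mouse MLL-GAS7_406 or 2 without mouse MLL-ENL_760. With the values as deposited 4 monocyte genes were higher and 1 lower, and with quantile normalization 5 and 1. The median of the list was 0.09 over both sets, -0.56 within set 1 and 0.64 within set 2, and this difference between sets was not tested.

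None of the partner genes passed the test. Of 9 measured genes for MLL and its partners 0 were called by limma (0 at an unadjusted p under 0.05), and their median turned from -0.07 to 0.07 with the values as deposited. Endogenous Gas7 read 8.38, 9.35, 8.75, 9.05 and 9.24 in MLL-GAS7 and 8.55 to 10.27 with a median of 9.28 in MLL-ENL (-0.45 ± 0.36, adjusted p = 0.47), and Mllt1, which encodes ENL, 9.22, 9.22, 8.29, 8.27 and 7.38 and 7.86 to 9.38 with a median of 9.03 (-0.39 ± 0.31, adjusted p = 0.475). Of 3 further Gas7 probe sets 1 was lower in MLL-GAS7, with a difference of -0.94 (adjusted p over probe sets = 0.0285). No source used here says whether any of these probe sets can read the retroviral fusion, so they do not check the oncogene. Kmt2a differed by -0.07 ± 0.14, and all 10 measured MLL complex members lay between -0.54 and 0.08. Of them 1, Dpy30, was called lower (-0.54 ± 0.18, adjusted p = 0.0465), against 6.70% of all genes. That call was lost in 10 of 12 fits without 1 mouse (adjusted p up to 0.218).

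GAS7 belongs to the F-BAR proteins, which bend membranes and link them to actin. Among 19 measured F-BAR and actin nucleation genes 1 was higher and 1 lower, against 1.94% and 6.70% of all genes. The median was -0.04, or 0.11 with the values as deposited. Fnbp1l, which encodes the F-BAR protein TOCA-1 that activates N-WASP, was lower in MLL-GAS7: it read 10.30, 9.18, 9.69, 9.32 and 10.14 against 10.80 to 12.20 with a median of 11.54, with no overlap. The difference of -1.75 ± 0.34 (3.35-fold, adjusted p = 0.0012) was -1.79 within set 1 and -1.89 within set 2 and was called in each alternative. MLL-AF9 averaged 12.48, MLL-AF10 11.03, MLL-AF1p 10.35 and normal marrow 8.79. Srgap3, which has an inverse F-BAR domain, was higher by 0.92 ± 0.29 (adjusted p = 0.0366), a call lost in 8 of the 12 fits without 1 mouse (adjusted p up to 0.092).

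A list of genes tied to RAS and ERK feedback was compared by RNA level, and signalling itself was not measured. Of 13 measured, 4 were lower in MLL-GAS7, against 6.70% of all genes, and 0 higher, and the median was -0.59. Spry2, a Sprouty protein that dampens receptor tyrosine kinase signals, read 8.34, 9.68, 8.66, 8.24 and 8.91 against 9.99 to 10.46 with a median of 10.20, with no overlap and a difference of -1.43 ± 0.24 (2.69-fold, adjusted p = 0.000224). Its other kept probe set differed by 0.12 and was not called (limma adjusted p over probe sets = 0.874). Spry2 was called without each mouse. The other 3, Spred2 (-0.83), Ier3 (-1.03) and Dusp2 (-0.71), were not: without mouse MLL-GAS7_407, MLL-GAS7_408 or MLL-GAS7_410 Spry2 was the only called member, and without mouse MLL-ENL_703, MLL-ENL_760 or MLL-ENL_774, or with the values as deposited, there were 2. Of 17 immediate early genes 2 were lower, against 6.70% of all genes, and 0 higher, with a median of 0.05. Egr1, a growth factor response gene, read 7.88, 7.62, 8.35, 7.63 and 8.19 against 8.16 to 10.25 with a median of 9.76 (-1.66 ± 0.35, adjusted p = 0.00265), and Jun 7.56, 7.55, 8.11, 7.53 and 7.43 against 7.41 to 9.66 with a median of 8.99 (-1.14 ± 0.28, adjusted p = 0.00891). In both, the MLL-GAS7 mice were low, and mouse MLL-ENL_742 was as low, at 8.16 for Egr1 and 7.41 for Jun. Id1, an inhibitor of differentiation induced by BMP signals, differed by -1.18 ± 0.29 (adjusted p = 0.00908).

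Stress and metabolic genes made up several lists with more members lower than higher. Of 21 heat shock and unfolded protein response genes 7 were lower, against 6.70% of all genes, and 0 higher (median -0.45). Asns, asparagine synthetase, a target of the amino acid response, read 9.49, 9.68, 9.24, 8.89 and 8.44 against 10.43 to 11.13 with a median of 10.71, without overlap, and a difference of -1.64 ± 0.28 (adjusted p = 0.000221). The chaperone Hspa1b differed by -1.66 ± 0.45 (adjusted p = 0.0184) and the cochaperone Dnaja1 by -0.93 ± 0.19 (adjusted p = 0.00257). Hspa1b lost its call without mouse MLL-GAS7_407 (adjusted p = 0.0627), when 2 members remained called, and without mice MLL-GAS7_407 and MLL-GAS7_410 together 1 was. With only the 12 arrays fitted 4 members of the list were called. Of 23 glycolysis and hypoxia genes 7 were lower and 1 higher (median -0.36), against 6.70% and 1.94% of all genes. Hk1, hexokinase 1, read 10.87, 11.23, 10.61, 10.84 and 10.62 against 11.41 to 11.78 with a median of 11.63 (-0.78 ± 0.15, adjusted p = 0.0011), and P4ha1, a collagen prolyl hydroxylase induced by hypoxia, differed by -1.35 ± 0.29 (adjusted p = 0.00263). Both separated the groups. The 7 became 3 without mouse MLL-GAS7_407, and 4 without mouse MLL-GAS7_408 or MLL-GAS7_410, with the values as deposited or with only the 12 arrays fitted. The gene that was higher, the mTOR inhibitor Ddit4, differed by 1.63 ± 0.47 (adjusted p = 0.0242), and lost its call without mouse MLL-GAS7_405, MLL-GAS7_407 or MLL-GAS7_408 (adjusted p up to 0.0656).

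Genes of growth and division had small differences and few calls. Ribosome biogenesis genes, which supply the factors that process ribosomal RNA, were lower in 30 of 31 cases by sign, with 7 called, against 6.70% of all genes, 0 higher, and a median of -0.48. With the values as deposited the median was -0.33 and 5 were called. None of the 7 remained without mouse MLL-GAS7_407, without mouse MLL-GAS7_410 or with only the 12 arrays fitted. There were 2 to 4 without mouse MLL-ENL_701, MLL-GAS7_408, MLL-ENL_741, MLL-ENL_742 or MLL-ENL_760, 3 with quantile normalization, and 19 without mouse MLL-GAS7_406. In mouse MLL-GAS7_407 Bysl, a factor of the small ribosomal subunit, read 6.69 against 9.07 to 9.82 in the other 4. DNA replication genes had 3 of 29 lower, near the 6.70% of all genes (median -0.46). The count was 0 without mouse MLL-GAS7_407 or with only the 12 arrays fitted, 1 without mouse MLL-GAS7_408 or MLL-GAS7_410 and 18 without mouse MLL-GAS7_406. All 26 mitosis genes had a negative difference and 0 were called by limma (7 at an unadjusted p under 0.05, median -0.31, and -0.16 with the values as deposited, where 24 were negative). For oxidative phosphorylation all 30 were negative and 3 were called, a share near the 6.70% of all genes, 10 without mouse MLL-GAS7_406 and 1 without mouse MLL-GAS7_408, and with the values as deposited 25 were negative. Cytosolic ribosomal protein genes were at a median of -0.04, with 0 of 28 called (2 at an unadjusted p under 0.05), and 0.11 with the values as deposited.

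**Figure D4:**
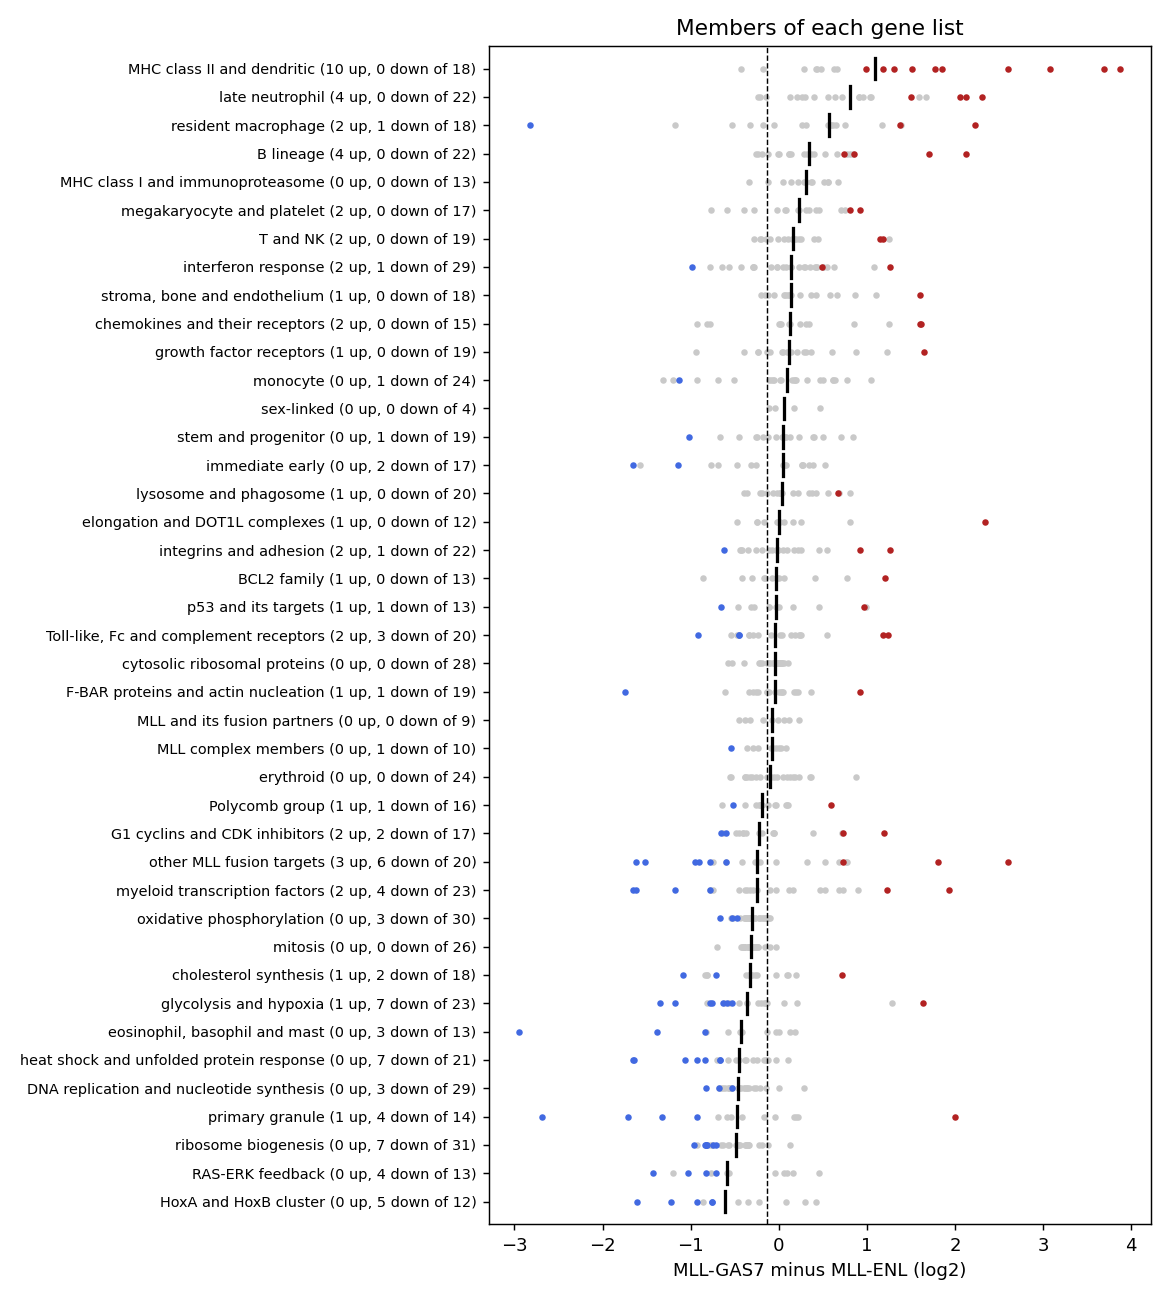
Each row is 1 of 41 gene lists, ordered by the median difference of its measured members (black bar), and each point is a member with its difference on the log2 scale, MLL-GAS7 minus MLL-ENL. Red and blue points passed the limma test higher in MLL-GAS7 or MLL-ENL, grey points did not, and the dashed line is the median of all genes at -0.13; the class II and dendritic list is at the top with a median of 1.09 and the HoxA and HoxB list at the bottom with -0.61.

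Most called genes ran the same way in the 2 array sets, which is largely built in because the calls came from these arrays. The values often differed in size. F7 stood at -3.56 in set 1 and -1.94 in set 2, and Cd24a at 2.95 and 1.22, and for neither did the test between sets pass (adjusted p = 0.772 and 0.747). Satb1, Epb41l4b and Akr1c13 were large in both. The test of the difference between sets passed for 8 genes of 13333, none of them named above.

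**Figure D5:**
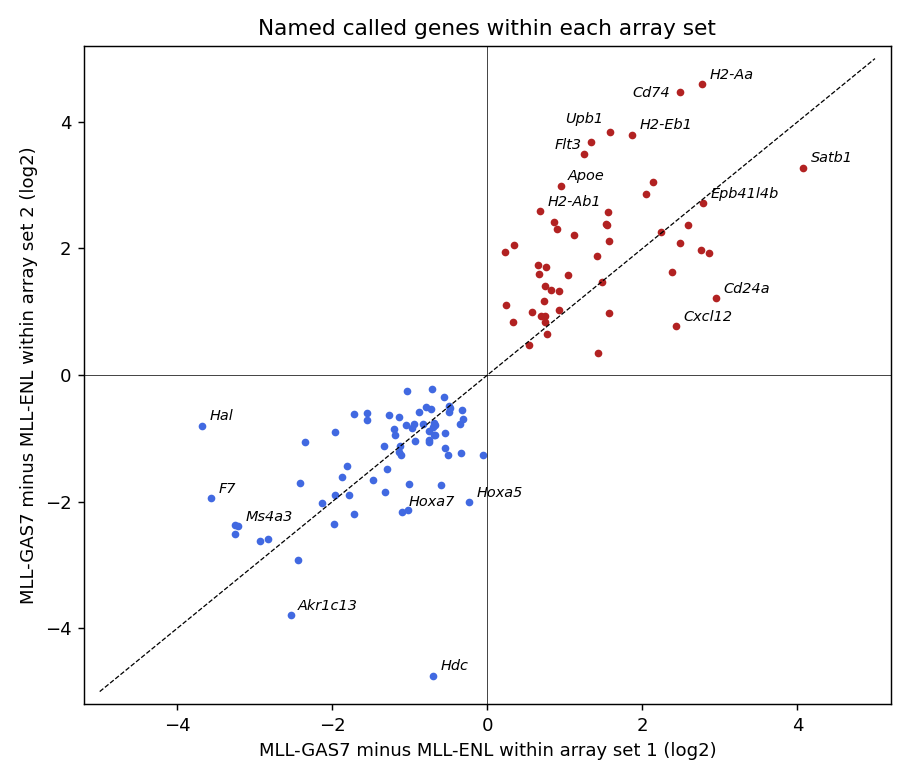
Each point is 1 of the 119 genes that the naming rule selected and the limma test called, with its difference (log2, MLL-GAS7 minus MLL-ENL) within array set 1 on the horizontal axis and within array set 2 on the vertical axis; the dashed line marks equal differences. Red points were called higher in MLL-GAS7 and blue points higher in MLL-ENL, and H2-Aa, Cd74, H2-Eb1 and H2-Ab1 lie above the line, with H2-Aa at 2.77 in set 1 and 4.60 in set 2.

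The means of the other leukaemias lay between those of the 2 cohorts for most of the called genes. Of the 258 genes higher in MLL-GAS7 the mean of MLL-AF9 lay between the 2 cohorts for 222, that of MLL-AF10 for 226 and that of MLL-AF1p for 206. Of the 893 higher in MLL-ENL the mean of MLL-AF10 lay between for 785. Normal marrow lay between for 115 of the 258 and 322 of the 893, and below both cohorts for 485 of the 893. The genes were chosen because the means of the 2 cohorts lay apart, so another mean between them is largely built in. The share over all genes was not computed. These positions are descriptions of means on the same arrays and were not tested.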

How the data were processed

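RNA of each marrow was measured on 1 single-colour Affymetrix array, and the values used are the linear intensity per probe set in the authors' deposited table of 45101 probe sets and 38 arrays. Their trimmed mean, without 2% at each end, was 500 on each array. The software behind them is not given in the labels or files. Probe sets were named through the platform annotation, where 34958 had 1 symbol, 932 several and 9211 none (64 are controls), and 34754 matched by gene ID. Intensities were transformed as log2(intensity + 46.1), the 25th percentile of all values, and shifted to the same array median because the medians spanned 0.54. A probe set was kept if at least 4 arrays had it above their own median (29004 kept), and for 6007 genes with several the brightest over all arrays was used. Folds are on this scale and understate changes of low genes.

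One limma model (limma 3.58.1, R 4.3.3) of 6 group means over 38 arrays, with 32 residual degrees of freedom, gave the contrast MLL-GAS7 minus MLL-ENL for 13333 genes. P-values are 2-sided with Benjamini-Hochberg adjustment over all genes, and a gene was called at an adjusted p under 0.05. The fit was tested on simulated data. The genes named are the 15 largest called differences in each direction, up to 5 called members of each of 41 gene lists, all HoxA and HoxB, MLL partner and sex-linked members, and members of lists with up to 10 measured genes, called or not; predicted genes were left out and 1 gene is not reported here. The members and lists were chosen with earlier results of these data known. The array sets are the split of the leukaemias shared by the most probe sets with separate levels. Alternatives changed the pseudocount, scaling, filter, probe set rule, arrays in the fit and array set, and left out each mouse. The number of arrays limits the precision. Promoters are RefSeq sequences.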

Additional observations from a re-analysis of the deposited data

Results flagged for a closer look

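Single mice stood apart from the rest of their cohort, by a Dixon test of the gap to the nearest mouse, in 21 of 320 groups. A group was a gene or a technical sign of the arrays in 1 cohort, and chance flags about 1 in 20 groups. No technical sign was flagged. Values are log2 levels against the range of the other mice of the cohort. Mouse MLL-GAS7_407 was low for 6 genes: Dennd5b at 8.45 against 9.56 to 9.94, Kdm1a at 10.16 against 10.63 to 10.68, Men1 at 8.08 against 9.73 to 9.92, Nop16 at 8.22 against 9.57 to 10.04, Sdf2l1 at 9.62 against 10.53 to 10.74 and Bysl at 6.69 against 9.07 to 9.82. It was high for Jun at 8.11 against 7.43 to 7.56. Mouse MLL-GAS7_406 was low for C1qb at 8.55 against 9.73 to 10.18, Hoxb3 at 6.55 against 7.41 to 7.56 and Tlr4 at 7.48 against 8.27 to 8.55, and high for Rrm2 at 12.65 against 12.12 to 12.23. Mouse MLL-GAS7_408 was high for Lifr at 11.16 against 9.02 to 9.34 and Cbx7 at 9.70 against 8.90 to 9.12, and mouse MLL-GAS7_410 was low for Hoxa5 at 6.35 against 8.99 to 9.64.

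Mouse MLL-ENL_742 was low for Ccl6 at 9.15 against 11.24 to 11.64, Cdkn2c at 10.54 against 11.07 to 11.39, Egr1 at 8.16 against 9.55 to 10.25, Hal at 6.73 against 8.91 to 10.09 and Stat4 at 8.52 against 9.43 to 10.07, and high for Dkc1 at 12.76 against 12.10 to 12.37. Mouse MLL-ENL_701 was low for Prtn3 at 14.70 against 15.07 to 15.28.

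For 8 genes the cohort difference itself differed between the 2 array sets by limma (adjusted p = 0.0263 to 0.0432). The difference in set 2 minus that in set 1, on the log2 scale, was positive for Abca9 (3.89), Adcy7 (1.27), Cav2 (2.99), Ccl9 (2.69), Dusp22 (1.97), Misp (2.96), Renbp (1.67) and Sohlh1 (2.05). Ccl9, a chemokine of myeloid cells, stood at -2.35 in set 1 and 0.34 in set 2, and Cav2, a caveolin, at -2.95 and 0.04. What the array sets reflect was not tested.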

How the results depend on the processing

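Of 157 genes looked up, 121 were called, 18 of them in each alternative that tested them and 63 in each of the 12 fits without 1 mouse. The total of 1151 calls became 530 with only the 12 arrays fitted, 221 within array set 1, 392 within set 2, 319 without mice MLL-GAS7_407 and MLL-GAS7_410 (chosen after seeing the data), 350 at a fold of at least 2 and 1762 over all kept probe sets. Calls higher in MLL-GAS7 (258) became 569 with the values as deposited, 546 with quantile normalization, 162 with only the 12 arrays, 431 with array weights, 41 within set 1, 161 without mice MLL-GAS7_407 and MLL-GAS7_410, 151 at a fold of at least 2 and 437 over all probe sets. Calls higher in MLL-ENL (893) became 560, 547, 368 with only the 12 arrays, 180 and 179 within sets 1 and 2, 158 without mice MLL-GAS7_407 and MLL-GAS7_410 and 199 at a fold of at least 2. Leaving out each mouse gave totals of 611 to 2068, with 140 to 328 higher in MLL-GAS7 and 370 to 1740 higher in MLL-ENL. The cohort difference in median array intensity was 0.108 to 0.246 across those fits, and passed the adjusted permutation test without mouse MLL-GAS7_406 (0.246). Uqcrq, a complex III subunit called at -0.66, turned to 0.00554 when probe sets that can match several genes were dropped, where another probe set stands for it. The cause of these changes was not tested, except that fewer arrays or more probe sets enter some fits. No paired analysis was possible because the cohorts share no mouse number.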

Other observations

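The natural killer cell receptor genes Klrk1 and Klrd1 were higher in MLL-GAS7 marrow. They were the 2 called of 19 measured T and natural killer cell genes (0 lower), against 1.94% of all genes higher, and both calls held without each mouse. The median of the list was 0.16, and -0.07 without mice MLL-GAS7_407 and MLL-GAS7_410 together. Klrk1, which encodes the activating receptor NKG2D, read 9.75, 9.15, 8.90, 9.60 and 9.73 in mice MLL-GAS7_405, MLL-GAS7_406, MLL-GAS7_407, MLL-GAS7_408 and MLL-GAS7_410 against 7.88 to 8.76 with a median of 8.27 in MLL-ENL, without overlap (1.14 ± 0.26, adjusted p = 0.00477). Klrd1, the CD94 chain, read 9.08, 8.01, 9.37, 9.72 and 8.65 against 7.36 to 8.15 with a median of 7.85, with mouse MLL-GAS7_406 inside the MLL-ENL range (1.18 ± 0.24, adjusted p = 0.0017). The T cell receptor genes Cd3e and Cd3d were each above the array median in 1 of 5 MLL-GAS7 mice and in 1 and 0 of 7 MLL-ENL mice. Il10ra, the interleukin 10 receptor, was higher by 1.65 ± 0.38 (adjusted p = 0.00607), against 1.94% of all genes. It was the 1 called gene of a list of 19 growth factor and cytokine receptors that holds neither Flt3 nor Lifr. On that list 3 were called with the values as deposited, 3 with quantile normalization, 2 with array set as a term, 1 or 2 in the fits without 1 mouse and 0 without mice MLL-GAS7_407 and MLL-GAS7_410 together. Mx1, an interferon-induced GTPase, was higher by 1.27 ± 0.32 (adjusted p = 0.0117). Of 29 interferon response genes, which include Mx1, 2 were higher and 1 lower, against 1.94% and 6.70% of all genes.

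Bmf, a pro-apoptotic BH3-only protein, was higher by 1.21 ± 0.25 (adjusted p = 0.00185). It was the single call of 13 BCL2 family genes, against 1.94% of all genes higher. Its other kept probe set differed by 0.60 and was not called (limma adjusted p over probe sets = 0.197). Sesn1, a p53 target that restrains mTOR, was higher by 0.96 ± 0.19 (adjusted p = 0.00171). Bmf and Sesn1 were called without each mouse. Of 13 measured genes of p53 and its targets 1, Sesn1, was higher and 1 lower. The shares of all genes were 1.94% and 6.70%, and the median of the list was -0.03. The lower gene, Cdkn1a, differed by -0.66. That call was lost with the values as deposited and in some fits without 1 mouse. Cxcl12, the niche chemokine, was higher by 1.60 ± 0.41 (adjusted p = 0.0127), with mouse MLL-GAS7_407 at 11.48 and the other 4 at 8.22 to 9.50, and its call was lost without that mouse (adjusted p = 0.0878). Of 24 erythroid genes limma called 0, with 3 at an unadjusted p under 0.05. Of 13 genes of MHC class I and the immunoproteasome 0 were called, with 5 at an unadjusted p under 0.05, and 6 were higher with the values as deposited and also with quantile normalization.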
